A study of Rattus norvegicus with 32 samples.

Results

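The 5 proliferation genes Mki67, Cdk1, Ccna2, Pcna and Ccnd1 were followed in the renal cortex of healthy and diabetic rats. They were chosen by their Ensembl identifiers, each checked against its chromosome, and all 5 were found among the 26404 genes listed. Libraries with a total count under 1000000 were left out. The study asked whether adding 4 medications to Roux-en-Y gastric bypass (RYGB) does more than bypass alone in early diabetic kidney disease.

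All rats were male. Sprague Dawley rats (SD, n = 6) were the unoperated healthy controls. The other 3 groups were from the Zucker Diabetic Sprague Dawley strain (ZDSD), which becomes obese and diabetic on chow, and all of these rats were given insulin degludec before surgery. SHAM rats (n = 7 used) had a laparotomy only. RYGB rats (n = 9) had gastric bypass. RYGB-FMRR rats (n = 7) had gastric bypass and then, from 2 weeks after surgery, chow with the lipid-lowering drugs fenofibrate (100 mg/kg) and rosuvastatin (10 mg/kg), the glucose-lowering drug metformin (300 mg/kg) and the ACE inhibitor ramipril (1 mg/kg). By the labels every rat was 37 weeks old. By the study's methods, however, SHAM rats were operated on when 25 weeks old, RYGB-FMRR rats when 29 and RYGB rats when 30 weeks old, and cortex was taken 8 weeks after that. Rats with a bypass were those that survived it. Diabetes, strain, laparotomy and insulin cannot be told apart between SHAM and SD, and age at surgery cannot be told apart from bypass. The 4 medications cannot be told apart from one another, nor from age at surgery between RYGB-FMRR and RYGB.

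Counts were analysed for 31 of the 32 rats labelled, and the remaining RYGB-FMRR rat was not analysed here. Total counts ran from 14502127 to 27597901 in the 29 libraries used. The other 2 libraries, SHAM rats 343 and 348, held 121511 and 101534 counts. In each of these Mki67, Cdk1 and Ccna2 had 0 counts, which allows up to 24.7 and 29.5 CPM (counts scaled to 1000000 per library), above every value seen elsewhere for these 3 genes. All 5 genes passed the filter on low counts, and p-values were adjusted over all 14776 genes tested. The files list genes by identifier only, so markers of tubule, vessel, stroma and leukocytes could not be looked up, and the labelled tissue was not checked against them.

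A cell that divides copies its DNA in S phase and separates the copies in mitosis. Cyclins switch on cyclin-dependent kinases at each step. Ccnd1 encodes cyclin D1, which partners Cdk4 and Cdk6 in G1 and answers to growth signals. Pcna encodes the sliding clamp of DNA polymerase and also serves DNA repair, so it is expressed in resting cells as well. Ccna2 encodes cyclin A2, active from S phase to early mitosis, and Cdk1 encodes the kinase that drives entry into mitosis. Mki67 encodes Ki-67, a protein of mitotic chromosomes that is widely used as a marker of cycling cells. Most tubular cells of the adult kidney are quiescent, and they can re-enter the cycle after injury. In whole cortex, fewer cycling cells and less RNA in each of them cannot be told apart.

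In the rn5 annotation deposited with the counts, Mki67 (ENSRNOG00000028137) lies at chr1:214925928-214952235 on the minus strand, with 9763 exonic bases. Cdk1 (ENSRNOG00000000632) lies at chr20:22694920-22709859 on the plus strand, with 1188 exonic bases. Ccna2 (ENSRNOG00000015423) lies at chr2:142891080-142897322 on the minus strand, with 1621 exonic bases. The counts cover the exons of each whole gene. Pcna (ENSRNOG00000021264) lies at chr3:131376228-131380189 on the minus strand, with 1248 exonic bases. Ccnd1 (ENSRNOG00000020918) lies at chr1:224960136-224969658 on the minus strand, with 3809 exonic bases.

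Promoters are printed because Mki67 and Cdk1 were called lower after bypass whereas Pcna was not called. RefSeq promoters of the GRCr8 build were held for these 3 of the 5 genes, and the 250 bases before each start site are given 5' to 3' on the gene's strand. They lie at chr1:199952594-199952843 on the minus strand for Mki67, chr20:19265043-19265292 on the plus strand for Cdk1 and chr3:139955821-139956070 on the minus strand for Pcna. Capitals mark TTTGAA, the letters of the cell cycle genes homology region found in many G2 and mitosis genes, CCAAT or its reverse complement ATTGG, the letters bound by NF-Y, and TTTNNCGC, a form of the E2F site.
Mki67: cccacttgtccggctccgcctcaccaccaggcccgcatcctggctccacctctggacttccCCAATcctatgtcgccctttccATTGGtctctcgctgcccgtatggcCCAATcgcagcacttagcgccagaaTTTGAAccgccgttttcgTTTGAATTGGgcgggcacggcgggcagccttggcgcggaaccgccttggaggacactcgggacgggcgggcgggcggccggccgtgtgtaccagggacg
Cdk1: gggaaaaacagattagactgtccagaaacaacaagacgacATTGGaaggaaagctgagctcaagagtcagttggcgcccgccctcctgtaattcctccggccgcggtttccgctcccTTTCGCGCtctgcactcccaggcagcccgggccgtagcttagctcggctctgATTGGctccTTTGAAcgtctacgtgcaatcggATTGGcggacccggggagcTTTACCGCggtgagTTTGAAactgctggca
Pcna: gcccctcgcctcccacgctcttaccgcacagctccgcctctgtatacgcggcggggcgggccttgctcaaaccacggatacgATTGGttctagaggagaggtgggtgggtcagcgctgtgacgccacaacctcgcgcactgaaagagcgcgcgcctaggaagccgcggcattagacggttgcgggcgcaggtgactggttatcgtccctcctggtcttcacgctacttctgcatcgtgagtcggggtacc

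The Mki67 window held TTTGAA 2 times and CCAAT 4 times, and 1 TTTGAA shared a base with the ATTGG after it. The Cdk1 window held TTTGAA 2 times, CCAAT 3 times and TTTNNCGC 2 times. The Pcna window held CCAAT 1 time, and these letters were its only capitals. Over 33469 rat promoters of the same length, searched on both strands, 16.2% held TTTGAA, 9.42% held CCAAT at least 2 times, and 1.59% held both TTTGAA and at least 2 CCAAT. TTTNNCGC stood in 4.11%. The GC box GGGCGG, not capitalised, stood in 30.5% of promoters and was matched 4 times in Mki67, 1 time in Cdk1 and 1 time in Pcna. The letters TTCGAA (1.4% of promoters), TNACGTCA (2.88%) and TGACTCA (4.05%) were in none of the 3 windows. A match describes the letters of these windows only. Binding was not measured, and whether the letters relate to the calls was not tested.

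Per length of transcript, the 5 genes fell into a low and a high set. Mean expression over the 29 rats was 71.8 FPKM (CPM per kilobase of exon) for Ccnd1 and 36.8 FPKM for Pcna, above 89.5% and 80.4% of the genes tested. It was 0.949 FPKM for Cdk1, 0.614 FPKM for Mki67 and 0.472 FPKM for Ccna2, above only 9.97%, 7.65% and 5.07% of the genes tested. Transcripts of Mki67, Cdk1 and Ccna2 were scarce in every group, with group means of at most 2.09 FPKM (Cdk1 in SHAM). Those of Ccnd1 and Pcna were abundant in every group, with group means of at least 35.8 FPKM (Pcna in RYGB). The differences given from here on are within a gene and use CPM, scaled by the trimmed mean of M values (TMM).

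Mki67 was highest in SHAM and lowest after either form of bypass. Its lowest, median and highest CPM were 3.97, 6.01 and 7.84 in SD, and 6.98, 12.1 and 21.9 in SHAM. They were 1.76, 3.22 and 4.33 in RYGB, and 1.95, 3.55 and 4.89 in RYGB-FMRR. SHAM rat 311 was the highest of its group, with the next SHAM rat at 13.7 CPM. SHAM rat 340 was the lowest of the SHAM rats, and every SHAM rat lay above every rat with a bypass.

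Cdk1 followed the same order with lower counts. Its lowest, median and highest CPM were 0.754, 1.12 and 2.66 in SD, and 0.650, 2.81 and 3.64 in SHAM. They were 0.272, 0.383 and 0.708 in RYGB, and 0.293, 0.493 and 0.598 in RYGB-FMRR. SHAM rat 340 lay well under the other SHAM rats and was the only SHAM rat within the RYGB range, below RYGB rat 337. No rat with a bypass reached the lowest SD rat.

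Ccna2 was the scarcest of the 5 genes. Its lowest, median and highest CPM were 0.476, 0.811 and 1.39 in SD, and 0.769, 1.41 and 3.16 in SHAM. They were 0.107, 0.331 and 0.579 in RYGB, and 0.0867, 0.368 and 0.653 in RYGB-FMRR. SHAM rat 311 was again the highest rat and SHAM rat 340 the lowest of its group, yet all SHAM rats stayed above all rats with a bypass. These values rest on 2 to 11 counts per rat in RYGB and 2 to 12 in RYGB-FMRR, against 13 to 80 in SHAM.

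Pcna varied little. Its lowest, median and highest CPM were 39.0, 45.9 and 48.4 in SD, and 42.1, 48.0 and 50.8 in SHAM. They were 38.8, 43.7 and 55.7 in RYGB, and 41.2, 46.7 and 51.8 in RYGB-FMRR. The 4 ranges overlapped almost completely, and the highest rat of all was RYGB rat 330, which had the lowest Mki67 of the 29 rats.

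Ccnd1 was lowest on average in RYGB-FMRR. Its lowest, median and highest CPM were 201, 253 and 305 in SD, and 302, 353 and 404 in SHAM. They were 172, 302 and 601 in RYGB, and 92.8, 130 and 211 in RYGB-FMRR. RYGB rats 337 and 319 were the 2 highest of all rats, at 601 and 457 CPM, and RYGB rat 338 was the only RYGB rat within the RYGB-FMRR range. SD rat 354, at 201 CPM, was the only SD rat within that range, and no SHAM rat lay within it. Within RYGB-FMRR, rats 312 and 307 stood apart at 211 and 207 CPM, while the other 5 rats reached at most 141 CPM.

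**Figure D1:**
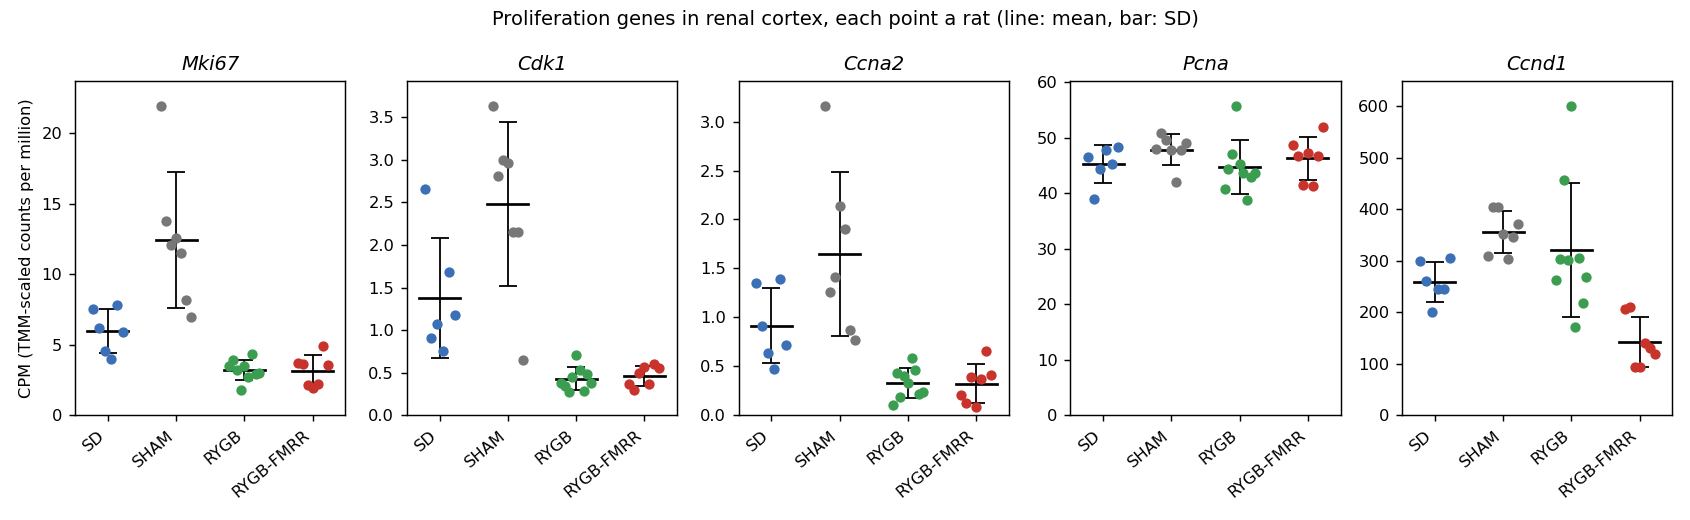
CPM of the 5 genes (vertical axes from 0, each gene on its own scale) in every rat of the 4 groups, each point a rat, with the group mean as a line and the SD as a bar. Mki67, Cdk1 and Ccna2 peak in SHAM and are low in both bypass groups, Pcna stays between 38.8 and 55.7 CPM, and Ccnd1 is low in RYGB-FMRR.

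SHAM was compared with SD to show what differed with diabetes in this model, from which strain, laparotomy and insulin cannot be told apart. Mki67 was 2.08-fold higher in SHAM (12.4 ± 4.85 against 5.98 ± 1.54 CPM, mean ± SD), a log2 fold change of 1.06 (SE 0.23) with an adjusted p of 0.00094 in edgeR's quasi-likelihood test. Cdk1 was 1.82-fold higher (2.48 ± 0.959 against 1.37 ± 0.705 CPM), with a log2 fold change of 0.86 (SE 0.28) and an edgeR adjusted p of 0.0184. For both genes the ranges of the 2 groups overlapped. A gene was called when its fold change was at least 1.3 and its adjusted p was under 0.05, and 2 of the 5 genes were called higher. Of all genes tested, 10.6% were called higher in SHAM and 18.6% were called in either direction. The median log2 fold change was 0.86 over the 5 genes and 0.02 over all genes.

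The other 3 genes were not called between SHAM and SD. Ccna2 had almost the same log2 fold change as Cdk1, 0.86 (SE 0.34, 95% interval 0.15 to 1.56), and an edgeR adjusted p of 0.0521. Ccnd1 had a log2 fold change of 0.46 (95% interval 0.01 to 0.90) and an edgeR adjusted p of 0.102. Pcna had a log2 fold change of 0.08 (95% interval -0.06 to 0.22) and an edgeR adjusted p of 0.35. The Cdk1 and Ccna2 results lay near the threshold. Without SD rat 355 the Cdk1 call was lost (edgeR adjusted p of 0.0554), and in a model of SD and SHAM alone its adjusted p was 0.0786 while that of Ccnd1 was 0.00608. With the 2 low libraries kept, Ccna2 passed at an edgeR adjusted p of 0.0491, and 3 of the 5 genes were called.

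RYGB was compared with SHAM to show what differed with bypass alone, from which age at surgery (30 against 25 weeks) cannot be told apart. Cdk1 fell most of the 5 genes, 5.78-fold (0.427 ± 0.136 against 2.48 ± 0.959 CPM), with a log2 fold change of -2.53 (SE 0.28) and an edgeR adjusted p of 1.34e-06. Ccna2 fell 4.99-fold (0.328 ± 0.153 against 1.64 ± 0.835 CPM), with a log2 fold change of -2.32 (SE 0.34) and an edgeR adjusted p of 6.37e-05. Mki67 fell 3.88-fold (3.20 ± 0.738 against 12.4 ± 4.85 CPM), with a log2 fold change of -1.96 (SE 0.21) and an edgeR adjusted p of 1.22e-06. These 3 of the 5 genes were called lower, where 3.86% of all genes tested were called lower and 5.35% in either direction. Among all 14776 genes, Mki67 ranked 6 and Cdk1 ranked 8 by p-value. Mki67 and Ccna2 did not overlap between the groups, as was the case in the lower direction for 0.785% of all genes.

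Neither Pcna nor Ccnd1 was called after bypass alone. Pcna was 44.7 ± 4.80 CPM in RYGB and 47.8 ± 2.78 CPM in SHAM, with a 95% interval of the log2 fold change from -0.22 to 0.03 and an edgeR adjusted p of 0.299. Ccnd1 was 321 ± 131 CPM in RYGB and 356 ± 40.8 CPM in SHAM, with an interval from -0.55 to 0.25 and an edgeR adjusted p of 0.671. The interval of Ccnd1 still allows a fall past the 1.3-fold threshold. With a rat left out, its log2 fold change ran from -0.31 (without RYGB rat 337) to -0.06 (without RYGB rat 338), and it was not called in any of these fits. Over the 5 genes the median log2 fold change was -1.96, beside 0.00 over all genes.

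RYGB-FMRR was compared with the same SHAM rats, so these differences are not independent of those for RYGB. Mki67 was lower by a log2 fold change of -1.98 (SE 0.23, edgeR adjusted p of 3.37e-07), Cdk1 by -2.43 (SE 0.30, adjusted p of 8.09e-07) and Ccna2 by -2.39 (SE 0.37, adjusted p of 2.71e-05). Their mean CPM in RYGB-FMRR were 3.15 ± 1.09, 0.462 ± 0.119 and 0.321 ± 0.197. The transcript of cyclin D1 was lower as well. Ccnd1 stood at 142 ± 49.1 CPM, 2.51-fold below SHAM, with a log2 fold change of -1.33 (SE 0.21) and an edgeR adjusted p of 3.69e-05. Thus 4 of the 5 genes were called lower, where 7.7% of all genes tested were called lower and 12.1% in either direction. For all 4 the groups did not overlap, which held in the lower direction for 2.35% of all genes. Pcna, at 46.2 ± 3.82 CPM, had a log2 fold change of -0.05 (95% interval -0.18 to 0.08) and an edgeR adjusted p of 0.633.

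RYGB-FMRR was compared with RYGB to show what differed with the medications, from which age at surgery (29 against 30 weeks) cannot be told apart. Only Ccnd1 was called. It was 2.26-fold lower in RYGB-FMRR, a log2 fold change of -1.18 (SE 0.20, 95% interval -1.59 to -0.76) and an edgeR adjusted p of 0.000207. Ccnd1 remained called without any 1 rat, with log2 fold changes from -1.30 to -1.01. Of all genes tested, 1.82% were called lower and 4.56% in either direction. The groups overlapped through RYGB rat 338. Mki67 had a log2 fold change of -0.03 (95% interval -0.49 to 0.43, edgeR adjusted p of 0.956). Cdk1 had one of 0.10 (95% interval -0.55 to 0.76, edgeR adjusted p of 0.874), and Ccna2 had one of -0.07 (95% interval -0.90 to 0.76, edgeR adjusted p of 0.939). Pcna had the narrowest interval, from -0.08 to 0.17 around 0.05 (edgeR adjusted p of 0.643). The intervals of Mki67, Cdk1 and Ccna2 leave room for changes past the 1.3-fold threshold in either direction. Whether the response of Ccnd1 differed from that of the other genes was not tested.

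**Figure D2:**
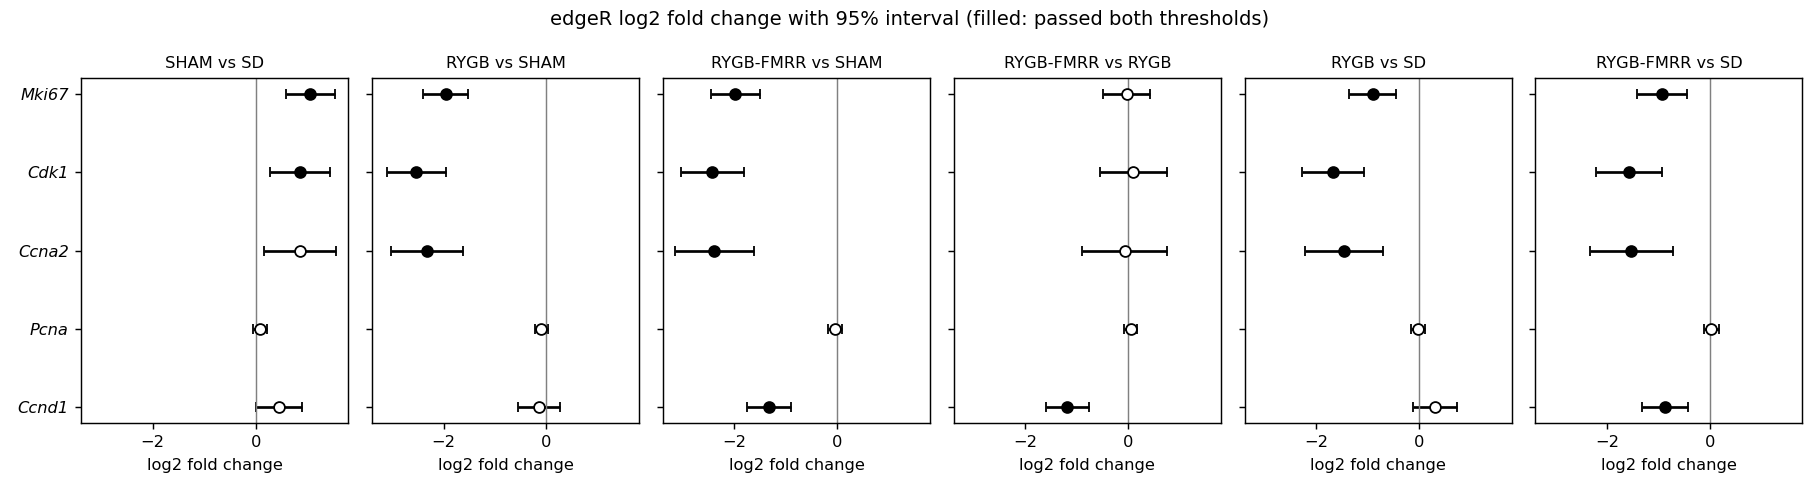
Log2 fold change of the 5 genes (horizontal axis) with its 95% interval in the 6 comparisons of groups, from edgeR, with filled points for genes past both thresholds. Mki67, Cdk1 and Ccna2 lie far left of 0 in both comparisons with SHAM, and Ccnd1 lies at -1.33 and -1.18 in RYGB-FMRR compared with SHAM and with RYGB.

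Both bypass groups were also compared with the healthy SD rats. In RYGB, Cdk1 was 3.18-fold lower than in SD (log2 fold change -1.67, SE 0.30, edgeR adjusted p of 6.88e-05) and the groups did not overlap. Ccna2 was 2.75-fold lower (log2 fold change -1.46, SE 0.37, edgeR adjusted p of 0.00247), and Mki67 was 1.86-fold lower (log2 fold change -0.90, SE 0.22, edgeR adjusted p of 0.00227). So 3 of the 5 genes were called lower than in SD, where 9.43% of all genes tested were called lower and 19.5% in either direction, and 5.54% did not overlap in the lower direction. Ccnd1 had a log2 fold change of 0.31 (95% interval -0.11 to 0.73, edgeR adjusted p of 0.238) and Pcna had one of -0.02 (95% interval -0.15 to 0.11, edgeR adjusted p of 0.858).

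In RYGB-FMRR, the comparison with SD gave log2 fold changes of -0.93 for Mki67 (SE 0.24, edgeR adjusted p of 0.00387), -1.57 for Cdk1 (SE 0.31, edgeR adjusted p of 0.000321) and -1.53 for Ccna2 (SE 0.39, edgeR adjusted p of 0.00385). Ccnd1 was 1.83-fold lower than in SD, with a log2 fold change of -0.87 (SE 0.22) and an edgeR adjusted p of 0.00292. Hence 4 of the 5 genes were called lower, where 8.94% of all genes tested were called lower and 16.7% in either direction. Cdk1 alone did not overlap, beside 6.19% of all genes in the lower direction. Pcna had a log2 fold change of 0.03 (95% interval -0.10 to 0.17, edgeR adjusted p of 0.75). Mean Ccnd1 therefore ran from SHAM through RYGB and SD to RYGB-FMRR, and of the neighbours in that order only SD and RYGB-FMRR differed past the threshold. For Mki67 the order was SHAM, SD, RYGB, RYGB-FMRR, and the last pair did not differ past the threshold.

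**Figure D3:**
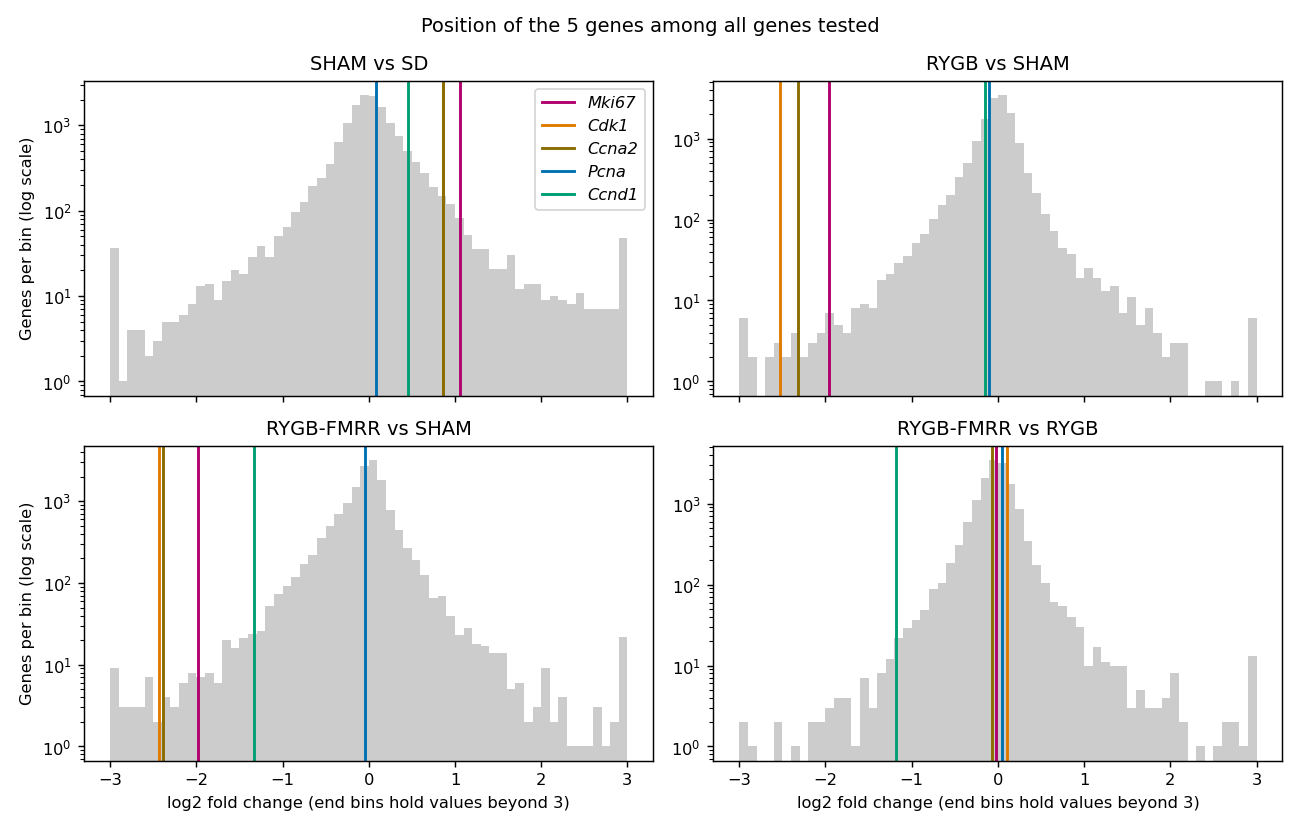
Number of genes (vertical axis, log scale) in bins of log2 fold change (horizontal axis) over the 14776 genes tested in 4 comparisons, with a coloured line for each of the 5 genes. The lines of Mki67, Cdk1 and Ccna2 stand in the sparse left tail in both comparisons with SHAM, whereas Pcna stands near 0 in all 4 panels.

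The spread between rats was set beside counting error, taken as 100 divided by the square root of the mean count. For Cdk1 in RYGB the coefficient of variation (CV) of CPM was 31.8% and counting alone gives 34.2%. In RYGB-FMRR these were 25.7% and 31.6%. At 5 to 15 counts per rat, differences in Cdk1 between treated rats could not be told from counting error. In SHAM, Cdk1 varied by 38.6% where counting gives 13.9%, and Mki67 varied by 39.0% where counting gives 6.24%. Ccna2 varied by 61.4% in RYGB-FMRR, where counting gives 38.6%. Ccnd1 had 1883 to 12730 counts per rat. Its CV was 11.5% in SHAM, 15.0% in SD, 40.7% in RYGB and 34.6% in RYGB-FMRR, where counting gives between 1.19% and 1.78%. Whether the CV of Ccnd1 differed between groups was not tested.

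Over all 4 groups, the biological CV fitted by edgeR was 27.0% for Ccnd1, where the median of the 500 genes nearest to it in level was 10.01%. For Mki67 it was 28.6% beside a median of 16.2%, for Cdk1 34.2% beside 26.4%, and for Ccna2 40.1% beside 27.3%. Pcna, at 8.35%, had the CV of its 500 neighbours, whose median was also 8.35%.

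**Figure D4:**
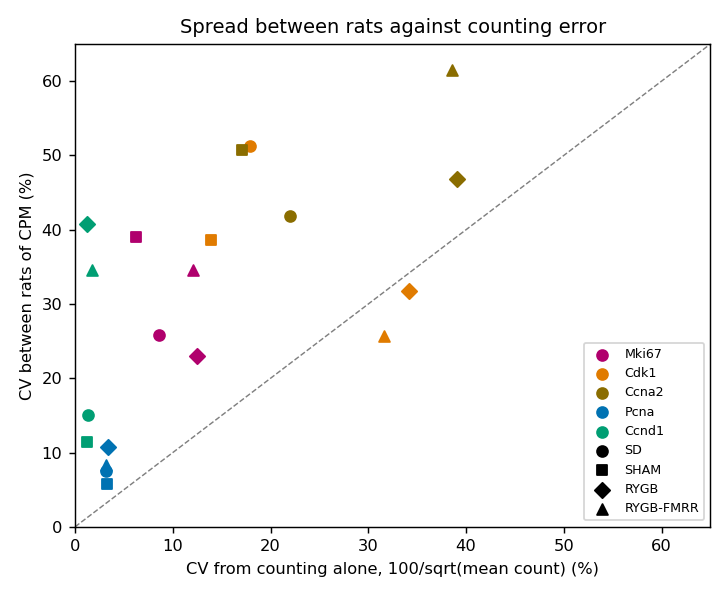
CV of CPM between rats (vertical axis, percent) against the CV that counting alone gives (horizontal axis, percent) for the 5 genes in the 4 groups, with a dashed line where they are equal. Cdk1 in RYGB and RYGB-FMRR lies below the line, and Ccnd1 lies far above it in every group.

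Rats within a group were then compared across the 5 genes, on log2 CPM with the group mean subtracted, in 10 pairs of genes. Ccna2 and Cdk1 varied together (Pearson's r = 0.549, permutation p = 0.00252, adjusted 0.0252, and Spearman's rho = 0.590, permutation p = 0.00186, over 29 rats). Ccna2 and Mki67 did so too (r = 0.515, permutation p = 0.00983, adjusted 0.0492, and rho = 0.535, permutation p = 0.00595). These 2 pairs passed the threshold. Without the 2 rats farthest from the median of Cdk1 (SHAM rat 340 and SD rat 352), r was 0.458 for Cdk1 and Ccna2. Without the 2 farthest from the median of Mki67 (SHAM rat 311 and RYGB rat 330), r was 0.530 for Mki67 and Ccna2. Each had an adjusted permutation p of 0.0939, so neither passed. Mki67 and Cdk1 had r = 0.436 (adjusted permutation p = 0.118) and rho = 0.339 (adjusted permutation p = 0.226). In the 7 pairs with Pcna or Ccnd1, r lay between -0.163 and 0.278 and no pair passed.

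Group by group, Mki67 and Ccna2 ranked the 6 SD rats in the same order (r = 0.971, adjusted exact permutation p = 0.0139, and rho = 1.0, adjusted exact permutation p = 0.0278), with SD rats 356 and 352 the highest in both. In the 7 SHAM rats they had r = 0.894 (adjusted exact permutation p = 0.0397), but their rho of 0.750 had an adjusted exact permutation p of 0.220. In RYGB, r was -0.0922 (adjusted exact permutation p = 0.897, rho = 0.050), and in RYGB-FMRR it was 0.373 (adjusted exact permutation p = 0.763, rho = 0.429), in groups where Ccna2 had 12 counts or fewer. Pcna and Ccnd1 varied together in SHAM (r = 0.801, adjusted exact permutation p = 0.0238), but their rho of 0.821 had an adjusted exact permutation p of 0.171. Cdk1 and Ccna2, which passed over all rats, passed in no group alone. Their r was 0.846 in SD (adjusted exact permutation p = 0.171) and 0.715 in SHAM (adjusted exact permutation p = 0.1205). It was 0.220 in RYGB (adjusted exact permutation p = 0.896) and 0.421 in RYGB-FMRR (adjusted exact permutation p = 0.763). Whether these relations differed between groups was not tested.

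**Figure D5:**
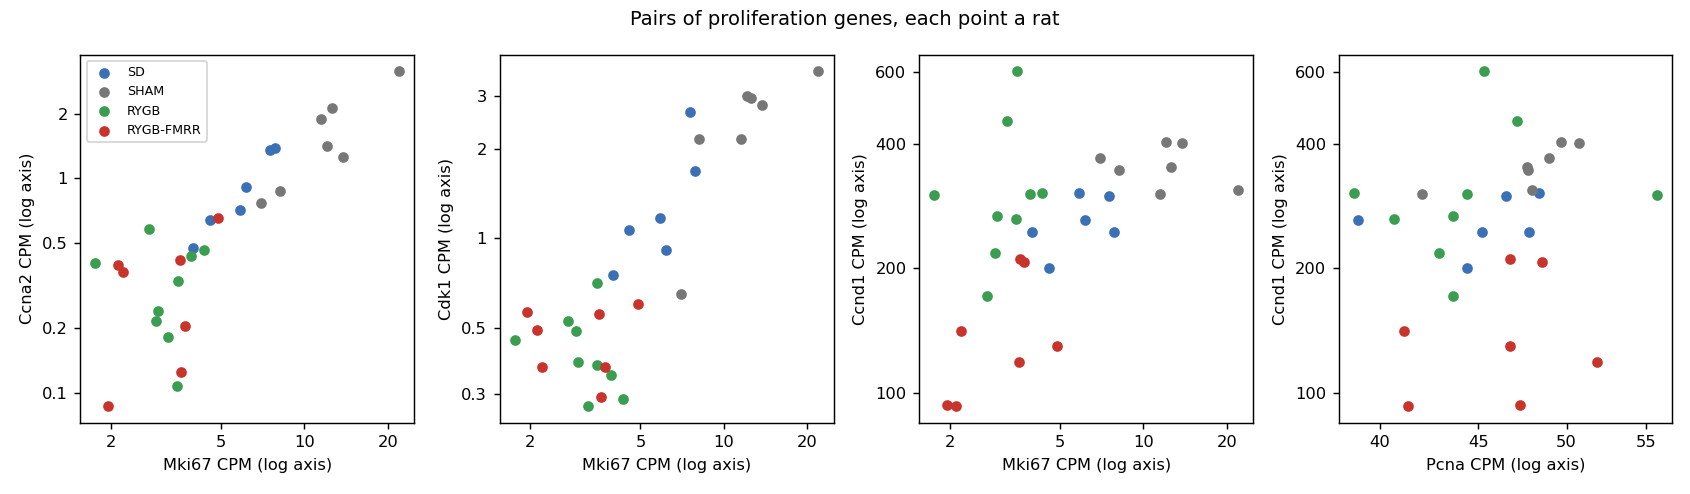
CPM of Ccna2, Cdk1 and Ccnd1 against Mki67, and of Ccnd1 against Pcna (all axes log scale), each point a rat coloured by group. All SHAM rats but rat 340 lie at the upper right for Mki67 and Cdk1, and the RYGB-FMRR rats lie low for Ccnd1 at Mki67 levels like those of RYGB.

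Likeness of pattern was measured as Pearson's r of log2 CPM over the 29 rats, as a description, since rats of a group share their treatment. With group means kept, Cdk1 ranked 21 and Ccna2 ranked 24 in likeness to Mki67 among the other 14775 genes (r = 0.867 and 0.861). Ccnd1 ranked 1084 (r = 0.506) and Pcna ranked 4735 (r = 0.166). Seen from Ccna2, Cdk1 ranked 3 and Mki67 ranked 5. With group means subtracted, the ranks for Mki67 dropped to 385 for Ccna2 and 727 for Cdk1. The 50 genes most like Mki67 in that setting were chosen without the group means, but from the same 29 rats that gave the calls. The counts that follow are therefore not independent of the calls and are a description only. Of these 50 genes, 19 were called lower in RYGB than in SHAM and 20 in RYGB-FMRR than in SHAM, beside 3.86% and 7.7% of all genes. The same counts were 17 and 15 for the 50 genes most like Cdk1, and 11 and 10 for those most like Ccna2. Of the 50 most like Pcna, 0 were called in either comparison, apart from 1 called higher in RYGB-FMRR. Among the 50 most like Ccnd1, 3 were called lower in RYGB-FMRR than in RYGB, beside 1.82% of all genes. The nearest genes are not named, because the identifiers could not be paired with symbols.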

How the data were processed

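Renal cortical RNA (stranded total RNA libraries, paired-end) was counted for 31 rats grouped by their labels. Before deposit, the authors used Trim Galore 0.4.0 with Cutadapt 1.9 for trimming, FastQC 0.11.2 for quality control, STAR 2.5.2b for alignment to the rn5 build and featureCounts 1.6.4 for counting pairs per Ensembl gene. The deposited values are raw counts, neither normalized nor filtered.

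From these counts, 29 libraries with totals of at least 1000000 were normalized by TMM in edgeR 4.0.16 (R 4.3.3), filtered with filterByExpr (minimum count 10) and fitted as 4 groups with no covariates. The quasi-likelihood test with Benjamini-Hochberg adjustment was used, and a gene was called as in the study, at a fold change of 1.3 or more in either direction together with an adjusted p below 0.05. Standard errors were derived from log2 fold changes and F statistics. Log2 CPM used a prior count of 2. FPKM used the exonic lengths in the count tables. Correlations used 100000 permutations, or every permutation within a group (Python 3.11.15, numpy 2.4.6). The edgeR steps were tested on simulated data. Counts limit precision, and intervals of 0 counts cover counting error only. Each library is labelled with its own rat number.

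Alternatives were DESeq2 1.42.0's Wald test (the study's test), DESeq2's size factors, total counts without TMM, no low-count filter, adjusted p alone, all 31 libraries, models of the compared groups only, 2 surrogate variables from sva 3.50.0, and each rat left out.

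The 5 genes and the gene lists were chosen with earlier results of these data known. Genes to be named were the 5 genes, called genes of cell cycle lists, close relatives such as Ccnd2 and Top2a, and the genes most like each of the 5. Of the 26404 identifiers, 0 were paired with symbols by the tables used, so the lists, the relatives and the cell type markers were not analysed here, and the most alike genes were counted but not named. Symbols of the 5 genes came with their identifiers.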

Additional observations from a re-analysis of the deposited data

Results flagged for a closer look

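In 20 sets of values (5 genes in 4 groups), 2 single rats stood far from their group by Dixon's test on log2 CPM, where chance gives about 1 in 20. SHAM rat 340 had the lowest Cdk1, at a log2 CPM of -0.42 (0.650 CPM, 11 counts), where the next SHAM rat had 1.17 (2.15 CPM), and the gap took 0.684 of the group's range against a critical value of 0.568. Because this rat was the lowest of SHAM, leaving it out widens the fall of Cdk1 and does not test it. The log2 fold change compared with SHAM became -2.69 in RYGB and -2.59 in RYGB-FMRR, and both were still called. SHAM rat 333 had the lowest Pcna, at a log2 CPM of 5.40 (42.1 CPM), where the next rat had 5.58 (47.7 CPM), and the gap took 0.671 of the range.

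The 2 SHAM libraries left out for their low totals also held counts of Pcna and Ccnd1. In rat 343, Pcna stood at 49.4 CPM from 6 counts and Ccnd1 at 395.03 CPM from 48 counts. In rat 348, Pcna stood at 108.3 CPM from 11 counts and Ccnd1 at 344.7 CPM from 35 counts. All 4 values were above the highest SD rat, at 48.4 CPM for Pcna and 305 CPM for Ccnd1. The low libraries were scaled by their total counts and the SD rats by TMM, so the scales are unlike. At 6 and 11 counts the Pcna values are imprecise. At the SHAM median, 5.83 and 4.87 counts of Pcna and 42.8 and 35.8 counts of Ccnd1 would be seen in these libraries.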

How the results depend on the processing

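Alternatives other than leaving out a single rat gave 239 values, and 230 of these kept their direction and side of the threshold. With a rat left out, 848 of 870 values did so. Many of the 870 left out a rat of neither compared group, which changed the difference little. The alternative of adjusted p alone reused the main fold changes and p-values. Both counts therefore overstate how much the results were tried. The calls for RYGB or RYGB-FMRR compared with SHAM, with SD and with each other held in every alternative run. The exceptions among calls were all in SHAM compared with SD. Cdk1 was lost when only SD and SHAM were modelled (log2 fold change 0.86, edgeR adjusted p of 0.0786) and ranged from 0.73 to 1.16 with a rat left out. Ccna2 passed with all 31 libraries (0.85), with total counts (0.98) and with 2 surrogate variables (0.82), and without SD rats 352 or 356, SHAM rats 334 or 340, RYGB rat 308, or RYGB-FMRR rats 324 or 336 (range 0.61 to 1.01, edgeR adjusted p from 0.0242 to 0.171). Ccnd1 passed with total counts (0.57), with only SD and SHAM modelled (0.45) and with 2 surrogate variables (0.50). Genes called numbered 4 with total counts, 4 with 2 surrogate variables and 1 to 3 with a rat left out, the 1 being without SD rat 355.

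Signs turned only for differences near 0. With total counts, the log2 fold change of Pcna was -0.037 between RYGB-FMRR and RYGB and 0.0742 between RYGB and SD. With a rat left out, the differences between RYGB-FMRR and RYGB ranged from -0.161 to 0.0617 for Mki67 and from -0.319 to 0.10 for Ccna2. Those of Pcna ranged from -0.0614 to 0.0118 between RYGB and SD, and from -0.00539 to 0.0589 between RYGB-FMRR and SD. Total counts moved the median log2 fold change of all genes to 0.14 for SHAM against SD, -0.13 for RYGB-FMRR against SHAM and -0.10 for RYGB-FMRR against RYGB. Genes called higher and lower then numbered 2502 and 784 (1562 and 1182 with TMM) for SHAM against SD, 453 and 1994 (655 and 1138) for RYGB-FMRR against SHAM, 279 and 666 (405 and 269) for RYGB-FMRR against RYGB, and 2146 and 998 (1491 and 1393) for RYGB against SD. With the adjusted p alone they numbered 2580 and 2627 in SHAM compared with SD. The cause of these changes was not tested.

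Pairs of genes past the threshold by Pearson's r numbered 2 over all rats, 0 without the 2 farthest rats, 1 within SD, 2 within SHAM, 0 within RYGB and 0 within RYGB-FMRR. By Spearman's rho, 0 passed within SHAM, where the lowest adjusted exact permutation p was 0.171. Ccna2 was not tested in a model of RYGB and RYGB-FMRR alone, where its counts were too low for the filter. The alternatives for cell cycle lists were not run, since no symbols were paired. No paired analysis was possible because no rat belongs to more than 1 group and replicate numbers only follow sample order. Depth limits Cdk1 and Ccna2 after bypass, where counts per rat ran from 5 to 15 and from 2 to 12.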
